A study of Mus musculus with 4 samples.

Results

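Integrin-marked CD8 T cells were CD8 T cells of the brain borders with at least 1 unique molecular identifier (UMI, 1 counted transcript molecule) of Itgae or Itga1 and none of Gzmk or Ccr7. They were chosen by these measured UMIs, from cells with 200 to 7000 genes, at most 5% mitochondrial UMIs, a UMI of Cd3d, Cd3e or Cd3g, a UMI of Cd8a or Cd8b1 and no Cd4 UMI. The gate kept 102 cells, among 1184 CD8 T cells, 4157 T cells and 4801 cell barcodes in all. T cells had been sorted by flow cytometry from meninges (the membranes around the brain) and choroid plexus (the tissue that makes cerebrospinal fluid) of female C57BL/6 mice that were young (10 weeks) or aged (18 months). RNA was read from the 5′ end by droplet single-cell sequencing. Each tissue at each age gave 1 library, pooled from 5 mice. Since the tissues of an age may share mice and a condition had no replicate, no test between ages or tissues was made. Wherever 4 values follow each other, they stand for the meninges and then the choroid plexus of young mice, followed by the same tissues of aged mice. The libraries held 3737140, 2295950, 4262917 and 3957717 UMIs.

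Itgae encodes CD103, the alpha chain that pairs with the beta 7 chain Itgb7 and binds E-cadherin on epithelium. Itga1 encodes CD49a, which pairs with the beta 1 chain Itgb1 and binds collagen. Both integrins mark CD8 T cells that stay in tissue for long times, and TGF-beta induces CD103. Resident cells typically carry the chemokine receptor Cxcr6 and, in mice, the repressor Hobit (Zfp683), and they shut down Klf2, which drives S1pr1, the receptor for leaving tissue. CD103 is also found on naive CD8 T cells of the mouse, which makes it a weak marker when used alone. Itgae lies at chr11:73090583-73147446 on the plus strand, Itga1 at chr13:114953096-115101964 on the minus strand, Cxcr6 at chr9:123806475-123811760 and Zfp683 at chr4:134053838-134058996, both on the plus strand (GRCm38, GENCODE vM21).

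The gate held 13, 11, 7 and 71 cells, so 71 of the 102 members came from aged choroid plexus. They made up 5% of CD8 T cells in young meninges (95% exact interval 2.69% to 8.40%), 6.59% in young choroid plexus (3.33% to 11.5%), 2.49% in aged meninges (1.01% to 5.07%) and 14.9% in aged choroid plexus (11.8% to 18.4%). Intervals are Clopper-Pearson for shares and exact Poisson for UMI sums, and cover counting error and not the spread between mice. The interval of aged choroid plexus lay above those of the other 3 libraries, which overlapped each other. Median UMIs per member were 3337, 3294, 1472 and 3179, the lowest in aged meninges. Thinned to 1000 UMIs per cell before gating, the shares were 3.70, 5.13, 2.33 and 11.8%, and the intervals of young (1.90% to 10.8%) and aged choroid plexus (8.73% to 15.6%) then overlapped, as they also did without the top doublet scores or without the exclusion of Gzmk and Ccr7. No member barcode was shared between libraries. The gate was thin, since 67 members had 1 integrin UMI, 24 had 2 and 11 had more, and 8 lacked a Cd8b1 UMI. Just outside it stood 51 integrin cells with exactly 1 Gzmk UMI and 20 with exactly 1 Ccr7 UMI.

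**Figure D1:**
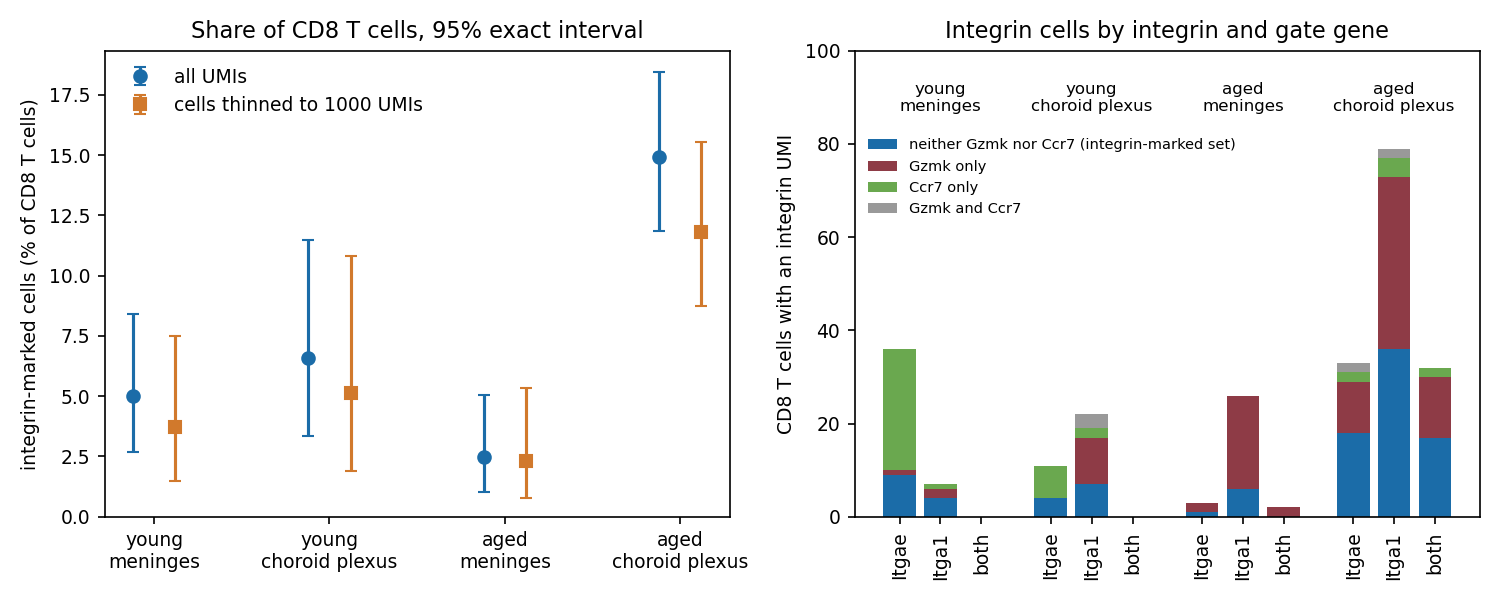
Left, integrin-marked cells as a percentage of CD8 T cells in each library, with 95% exact intervals, from all UMIs (circles) and after thinning (squares). Right, number of CD8 T cells with an Itgae UMI only, an Itga1 UMI only or both, coloured by the gate genes they also carried. Aged choroid plexus stands highest on the left at 14.9%, and 26 of 36 Itgae cells of young meninges on the right are Ccr7-positive, beside 62.2% of that library's cells with neither integrin.

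Itgae cells followed each library's content of Ccr7. In young meninges, 36 CD8 T cells carried Itgae without Itga1, and 26 of them (72.2%, 54.8% to 85.8%) had a Ccr7 UMI and no Gzmk UMI. The count was 7 of 11 in young choroid plexus (63.6%), 0 of 3 in aged meninges and 2 of 33 (6.06%) in aged choroid plexus. Among CD8 T cells with neither integrin it was 135 of 217 (62.2%, 55.4% to 68.7%), 66 of 134 (49.3%), 21 of 250 (8.4%) and 24 of 332 (7.23%), with intervals that overlapped those of the Itgae cells. Itgae was found in 0 of 7, 0 of 22, 2 of 28 and 32 of 111 CD8 T cells with an Itga1 UMI, against 36 of 253, 11 of 145, 3 of 253 and 33 of 365 CD8 T cells without one. In aged choroid plexus the integrins were thus found together, at 28.8% (20.6% to 38.2%) against 9.04% (6.31% to 12.5%), with intervals that did not overlap. In both young libraries no cell carried both. Of the members, 9, 4, 1 and 18 had Itgae alone, 4, 7, 6 and 53 had Itga1, and the 17 with both were all from aged choroid plexus.

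Of the defining markers not used by the gate, Cxcr6 was present and Zfp683 nearly absent. Cxcr6, the receptor for CXCL16, reached 166 CPM (a gene's UMIs in 1000000 UMIs of the set) in members of young meninges (2 of 13 cells, 8 of the 9 UMIs in 1), 398 in young choroid plexus (5 of 11), 1659 in aged meninges (6 of 7) and 775 in aged choroid plexus (63 of 71). Ccr7-positive CD8 T cells, which carried Ccr7 and none of Itgae, Itga1 and Gzmk, had 59.3, 99.6, 98.0 and 80.4 CPM of Cxcr6. Their median depth was 3827, 3403, 4914 and 4923.5 UMIs per cell, above that of members. Cxcr6 was not particular to members: Gzmk-positive cells (Gzmk and none of the other 3 genes) had 528, 598, 523 and 465 CPM. Zfp683 gave 2, 1, 0 and 5 UMIs, in 8 of the 102 members. Prdm1, which encodes Blimp-1, the partner of Hobit, was found in 0, 0, 1 and 5 members, and Cd69, an early activation and retention molecule, in 3, 5, 0 and 9. After thinning, a Cxcr6 UMI was found in 52.1% of aged choroid plexus members, 36.4% of Gzmk-positive, 20.8% of Ccr7-positive and 45.0% of cells with none of the 4 genes.

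Klf2 split the members by library. It reached 1090 CPM in members of young meninges (10 of 13 cells), 304 in young choroid plexus (3 of 11), 151 in aged meninges (1 of 7) and 31.3 in aged choroid plexus (6 of 71). Ccr7-positive cells had 1073, 789, 774 and 572 CPM of Klf2. Members of young meninges were thus at the level of Ccr7-positive cells, and those of aged choroid plexus below every other set of that library. The values of young meninges went against a resident-like label, so the cells are called by their integrins here.

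**Figure D2:**
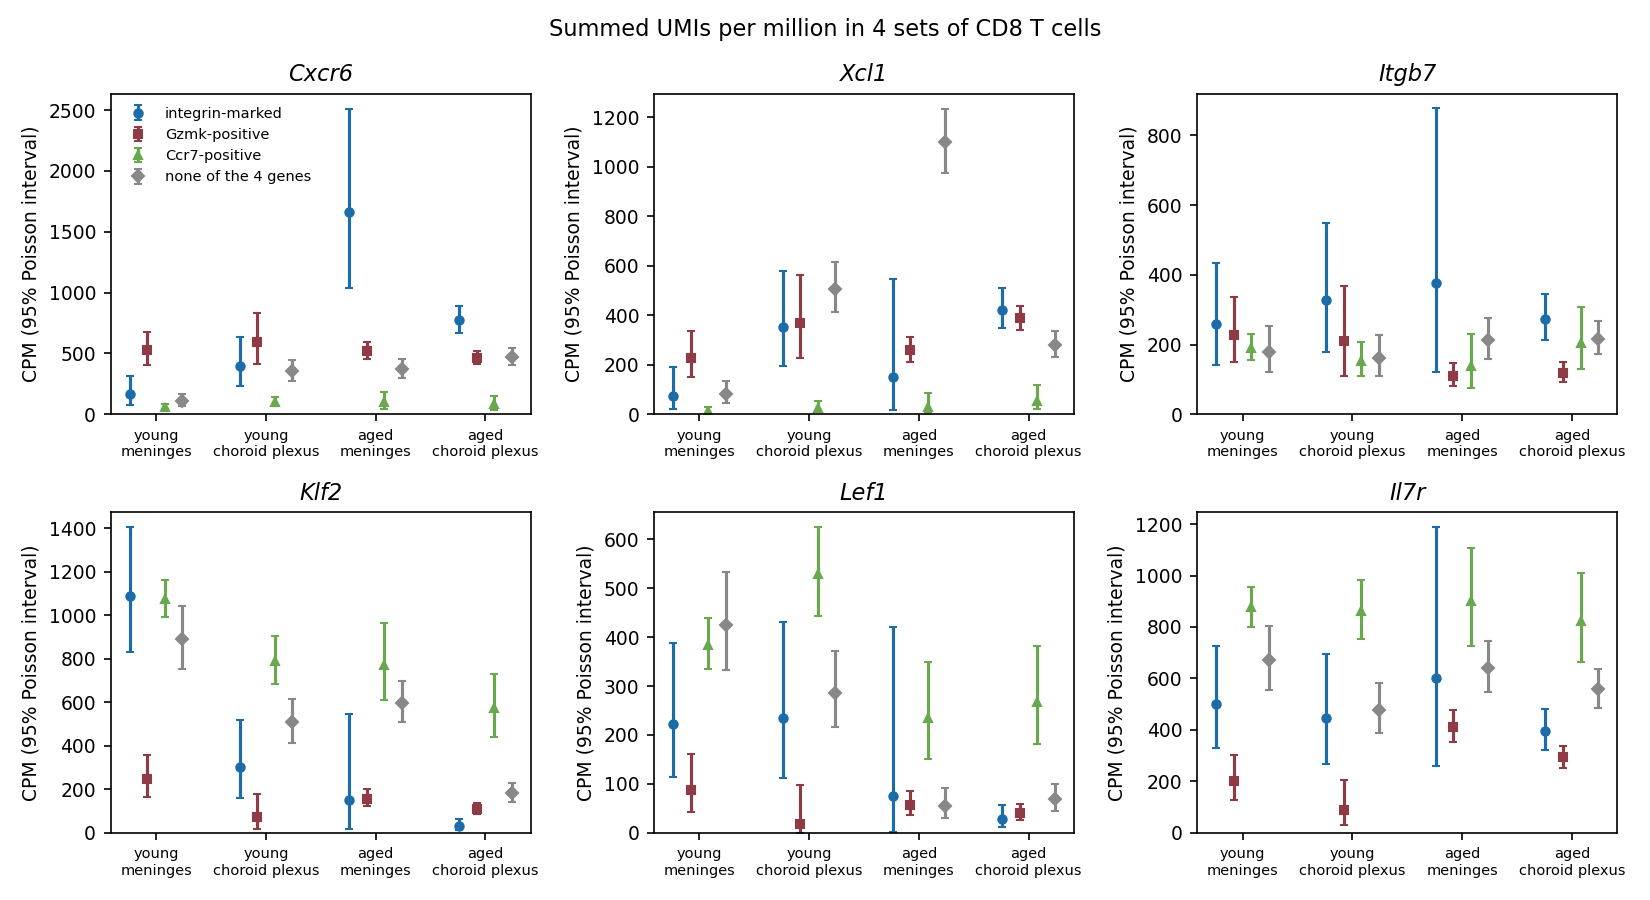
CPM of summed UMIs with 95% Poisson intervals for 6 genes in the 4 libraries. Circles are integrin-marked cells, squares Gzmk-positive, triangles Ccr7-positive and diamonds CD8 T cells with none of the 4 gate genes. Cxcr6 of members lies above that of Ccr7-positive cells in each library, through 1 cell with 8 of 9 UMIs in young meninges, and Klf2 of members is lowest, at 31.3 CPM, in aged choroid plexus.

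Split by integrin, the young members differed widely, but integrin went with tissue: 9 cells with Itgae alone were from meninges and 4 from choroid plexus, against 4 and 7 with Itga1, so the 2 cannot be told apart here. Junb (14 against 57 UMIs) and Nfkbia (5 against 37), early genes that tissue digestion can raise, were also lower in the Itga1 cells. No library but aged choroid plexus held 10 cells of each kind, so this split was described by size alone, as a log2 ratio of at least 1 either way after adding 25 CPM, with at least 20 UMIs on the higher side. Among the 13 young cells with Itgae alone, the granule protein Nkg7 was in 8, Id2 in 4 and Cxcr6 in 2. These 13 cells also carried genes of naive cells. They held 63 UMIs of Klf2, 43 of the survival receptor Il7r, 20 of Lef1 and 26 of Tcf7, the latter pair being transcription factors of naive and stem-like cells. They held no UMI of the granule proteases Gzma and Gzmb, of the receptor adaptors Fcer1g and Tyrobp, or of the chemokine Ccl4, and Ccl5 was in 3 of 13 cells. The 11 young cells with Itga1 had Ccl5 and the granule protein Nkg7 in 11 of 11 cells, Gzmb in 6 and the chemokine Xcl1 in 8, while Lef1 was in 1 and Tcf7 in 2. Of 347 genes measured, 38 (11%) were higher and 25 (7.2%) lower in the Itga1 cells, and with TMM scaling (trimmed mean of M-values, which corrects for a few abundant genes) 27 were higher and 30 lower. Single cells weighed heavily here, since 121 of the 124 Gzma UMIs came from 1 cell. Natural killer cell receptors were part of the same cells, as 3 of the 11 carried Klrb1c or Ncr1, and their part in the difference was not tested.

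In aged choroid plexus both kinds of member carried effector genes. The 18 cells with Itgae alone carried Ccl5 in 17, Cxcr6 in 15 and Xcl1 in 9 cells, against 51, 48 and 36 of the 53 cells with Itga1. Klf2 was found in 3 of 18 and 3 of 53. Of 1146 genes measured, 59 (5.15%) were higher and 1 (0.0873%) lower in the Itga1 cells, but where at least 10 UMIs were expected in the smaller sum the count was 15 and 1 of 786. Gzmb was in 15 of 53 against 2 of 18 cells. Of 5 other integrin subunits measured 2 were higher. Itgb1, the chain that pairs with CD49a, had 645 against 245 CPM and was in 42 of 53 against 12 of 18. Itgal had 199 against 86.4 CPM and was in 27 of 53 against 6 of 18. The histone gene Hist1h2ap had the largest ratio, with 147 of its 211 UMIs in 1 cell. Tpr, a nuclear pore protein, was the lower gene, at 183 against 461 CPM.

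**Figure D3:**
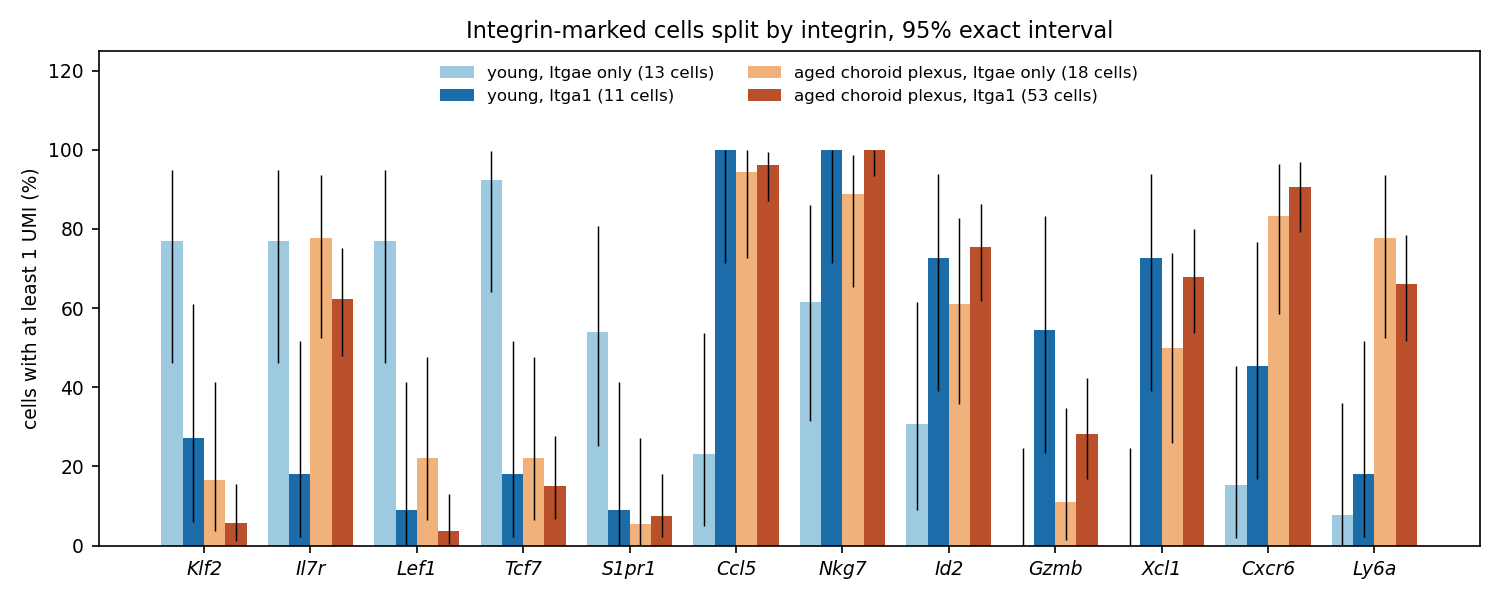
Percentage of integrin-marked cells with at least 1 UMI of 12 genes, with 95% exact intervals, for cells with Itgae alone and cells with Itga1, in both young libraries together and in aged choroid plexus. Klf2, Lef1, Tcf7 and S1pr1 are highest in young cells with Itgae alone, while Ccl5 is at 94.4% or above in the other 3 groups.

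Against Ccr7-positive CD8 T cells, some resident and cytotoxic genes were higher in integrin-marked cells and some naive, exit or circulation and ribosomal genes lower (4 of 7, 5 of 11, 6 of 9, 3 of 7 and 33 of 82 genes tested). Genes near 0 in 1 set could be tested only if the other set was high, so these counts describe the genes tested and not the lists. UMIs were summed per library and set, and tested with edgeR's quasi-likelihood test with library as a block in the 3 libraries with at least 10 cells in both sets, which left out aged meninges. Of 2181 genes, 93 (4.26%) passed an adjusted p of 0.05, 32 higher (1.47%) and 61 lower (2.8%). The sets were separated by Ccr7, so genes that go with Ccr7 lean by construction, and p-values measure the spread between 3 libraries that differ in age and tissue. Calls depended on single libraries, the lower ones most: 3 genes were higher and 1 lower without young choroid plexus, 28 and 2 without aged choroid plexus, and 23 and 39 without young meninges. With the tissues of an age summed, 4 were higher and 0 lower (395 at an unadjusted edgeR p under 0.05; this fit was not run in DESeq2).

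Of 20 genes known from resident cells, 7 passed the filter on low counts and 4 were higher, of which Litaf, Xcl1 and Rgs1 were low in Ccr7-positive cells and entered the test mainly through members. Cxcr6 was raised by 2.07 ± 0.33 on the log2 scale (SE, n = 3 libraries; edgeR adjusted p = 0.0066). Xcl1, which attracts cross-presenting dendritic cells, had 73.9, 351, 151 and 423 CPM in members and 14.0, 26.8, 29.4 and 53.6 in Ccr7-positive cells. Each member value was above each of those, but the meningeal member values were 4 and 2 UMIs. The 73.9 lay within the Poisson interval of the 53.6 (19.7 to 117). The log2 fold change of Xcl1 was 2.88 ± 0.37 (edgeR adjusted p = 0.0028). Rgs1, which damps chemokine receptor signals, had 425, 70.2, 453 and 153 CPM against 75.1, 3.83, 49.0 and 17.9, and 2.44 ± 0.37. The 453 rested on 6 UMIs in 1 cell and the 70.2 on 3 UMIs. Litaf, a regulator of endosomal traffic, passed the filter mainly through members, so its fold change has no firm size, and was found in 29 of 71 aged choroid plexus members and in 0 of 24 Ccr7-positive cells. Runx3, a driver of CD8 identity, had 0.20 ± 0.40 (edgeR adjusted p = 0.92) and Cd69 -0.65 ± 0.54 (edgeR adjusted p = 0.68).

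Of 16 cytotoxic genes 11 were tested and 5 were higher, namely Gzma, Gzmb, Klrk1, Nkg7 and Ctsw, which is a description and no support for the list, since Gzma and others were near 0 in Ccr7-positive cells and had to be higher to be tested. Gzmb had 406, 515, 75.4 and 204 CPM in members against 5.24, 0, 19.6 and 35.7 (edgeR adjusted p = 0.0025). In young meninges 20 of its 22 UMIs were in 1 cell. It averaged 13.7 CPM in Ccr7-positive cells and was tested mainly through members, so its fold change has no firm size. Gzma and Fcer1g, an adaptor of innate receptors, were nearly absent from Ccr7-positive cells and passed the filter through members alone, so their fold changes have no firm size. Gzma had 121, 3, 0 and 15 UMIs in members, in 4 cells, and Fcer1g 12, 27, 0 and 15, in 8 cells. Nkg7, which acts in granule release, was more even at 1.24 ± 0.17 (edgeR adjusted p = 0.0038). The receptor Klrk1 (NKG2D) had 2.51 ± 0.62, Slamf7 3.18 ± 0.62 and the inhibitory receptor Cd160 2.61 ± 0.45. Klrk1, Cd160 and Ccl4 averaged 11.9, 19.9 and 12.5 CPM in Ccr7-positive cells. In those cells Slamf7 had 6, 1, 2 and 1 UMIs and Fgl2 had 3, 0, 0 and 4. All of these genes were tested mainly through members, so their fold changes have no firm size. Cxcr3, which guides cells into inflamed tissue, had 222, 211, 302 and 251 CPM in members against 31.4, 23.0, 98.0 and 80.4, again each above, and 2.22 ± 0.38 (edgeR adjusted p = 0.010). The aged meningeal member value of Cxcr3 was 4 UMIs in 2 cells. The calcium-binding proteins S100a4 and S100a6 had 3.09 ± 0.37 and 2.75 ± 0.54, the immunoregulator Fgl2 3.36 ± 0.60, the chemokine Ccl4 3.37 ± 0.47 and the polyamine enzyme Odc1 2.10 ± 0.45, with 17 of its 21 UMIs of young meninges in 1 cell. The transcriptional regulator Id2, outside the lists and the 15 genes at either end, was also higher, by 2.01 ± 0.32 (edgeR adjusted p = 0.0066). Ccl5 missed the threshold at 1.76 ± 0.48 (edgeR adjusted p = 0.062).

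Of 12 naive genes 9 were tested and 6 were lower, and of 12 genes of tissue exit and circulating cells 7 were tested and 3 were lower (S1pr1, Klf3 and Ly6c2, the last a surface protein of effector and memory cells). Lef1 had 222, 234, 75.4 and 27.4 CPM in members and 384, 529, 235 and 268 in Ccr7-positive cells, a log2 fold change of -1.88 ± 0.39 (edgeR adjusted p = 0.021). S1pr1 had 73.9, 164, 0 and 23.5 CPM against 232, 238, 196 and 161, and -1.89 ± 0.42 (edgeR adjusted p = 0.028). Klf3, a repressor related to Klf2, had -2.40 ± 0.47, the genome organiser Satb1 -2.09 ± 0.39, Foxp1, a quiescence factor, -1.35 ± 0.31 and Il7r -1.17 ± 0.18. Klf2 itself did not pass (-1.61 ± 0.51, edgeR adjusted p = 0.12). The other named lower genes were Nsg2 (-3.09), Igfbp4 (-2.48), Cmah (-2.27), Actn1 (-2.22), Ssh2 (-1.87), Il27ra (-1.57), Crlf3 (-1.54), Emb (-1.39), Dgka (-1.26) and Ly6c2 (-1.20). Ribosomal protein genes gave 33 of the 61 lower calls, of 82 tested, with a median of -0.49 and none higher. They took 32.7, 37.4, 26.2 and 33.1% of UMIs in members and 42.4, 42.7, 46.5 and 41.9% in Ccr7-positive cells. Gzmk-positive cells had 30.2, 28.5, 32.9 and 34.5%, so a share below that of Ccr7-positive cells was not particular to members. Young choroid plexus members with Itgae alone had 43.6%.

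Other lists had few tested genes. Of 12 chemokine receptors 2 were tested and both (Cxcr3, Cxcr6) were higher, of 15 cytokines and chemokines 5 were tested and 2 (Xcl1, Ccl4) were higher, of 12 inhibitory receptors and factors 1 (Cd160) was tested and higher, and of 12 innate-like receptors 3 were tested and 1 (Fcer1g) was higher. Xcl1, Ccl4, Cd160 and Fcer1g were tested mainly through members. Of 10 other integrin subunits 5 were tested, and Itgb1 was higher by 1.51 ± 0.30 (edgeR adjusted p = 0.019), while Itgb7, the partner of CD103, had 0.39 ± 0.26 (edgeR adjusted p = 0.58). Of 12 TGF-beta pathway genes 3 were tested and 0 passed; Smad7, a target and brake of that pathway, had -1.16 ± 0.37 (edgeR adjusted p = 0.12). Of 14 immediate early and heat shock genes, which tissue digestion can raise, 6 were tested and 0 passed.

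**Figure D4:**
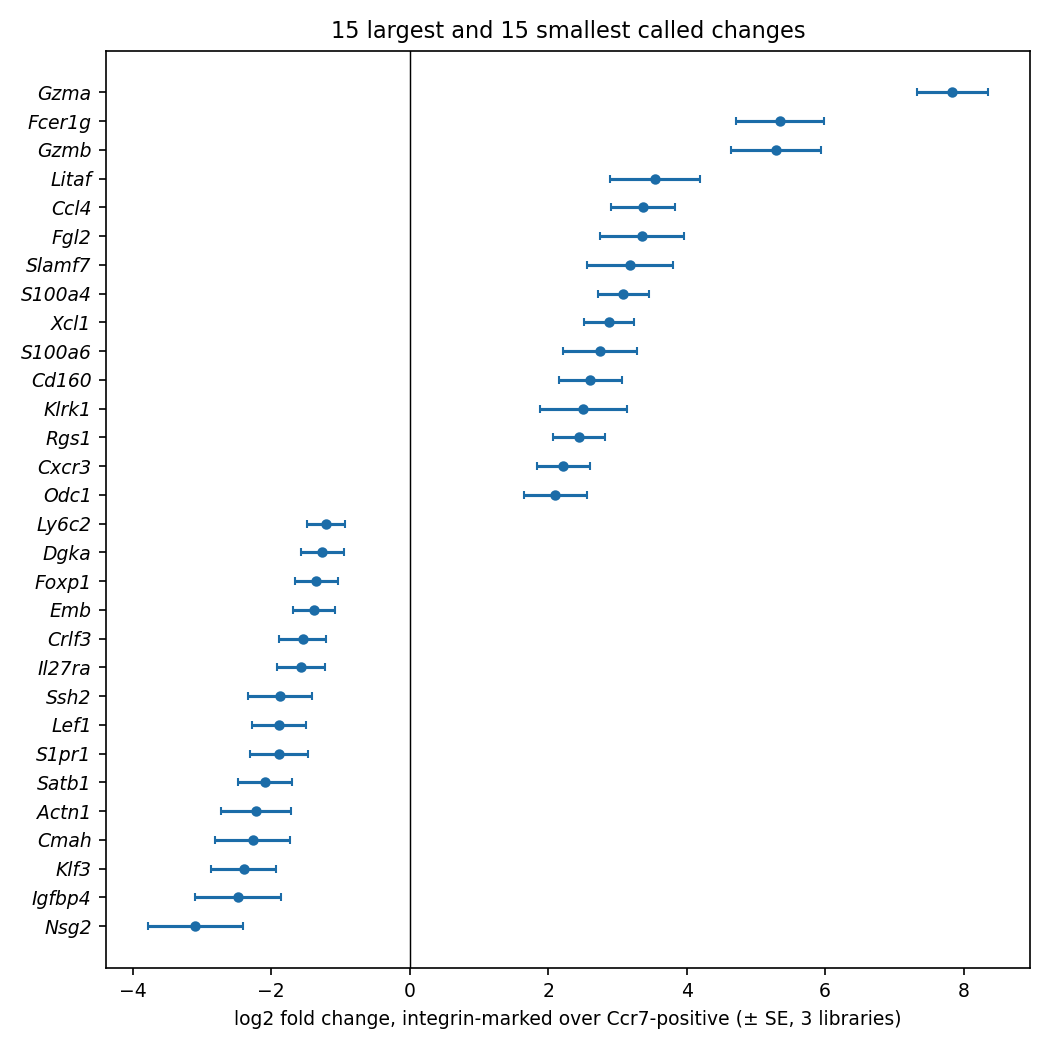
Log2 fold change with SE (bars, n = 3 libraries) of integrin-marked over Ccr7-positive CD8 T cells, from edgeR, for 15 called genes at either end of the range. Gzma and Fcer1g lie far out but rest on 4 and 8 member cells against a level near 0, and Nsg2 at -3.09 is the lowest. Gzmb, Klrk1, Cd160, Ccl4, Slamf7, Fgl2 and Litaf were also low in Ccr7-positive cells.

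Promoters of the genes named as higher were read for the core motif of Runx factors, which act in CD8 and resident T cells. The motif was written as TGTGGT or its reverse complement ACCACA and sought in the 250 bases before the start (RefSeq, GRCm38.p6). It was found in 8 of the 13 higher genes that matched the promoter table (61.5%; Odc1, Cxcr3, Klrk1, Cd160, S100a6, Xcl1, Gzmb and Gzma) and in 1 of 13 lower genes (7.69%; Ly6c2), beside 13.9% of 1721 tested genes and 15.9% of all 27025 genes. A gene with several listed promoters counted if any held it, and no test was made. Promoters of Cxcr6 (chr9:123806227-123806476, plus strand), Gzmb (chr14:56262335-56262584, minus strand) and Xcl1 (chr1:164935523-164935772, minus strand) are shown 5′ to 3′ along each gene, since these genes carry the residence, granule and chemokine parts of the comparison, with the motif in capitals. A match is a description of the letters and not a bound site.
Cxcr6: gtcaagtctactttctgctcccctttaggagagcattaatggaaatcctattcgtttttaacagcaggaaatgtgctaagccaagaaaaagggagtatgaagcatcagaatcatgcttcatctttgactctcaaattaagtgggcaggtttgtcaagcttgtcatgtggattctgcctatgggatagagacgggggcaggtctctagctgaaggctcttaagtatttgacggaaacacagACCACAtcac
Gzmb: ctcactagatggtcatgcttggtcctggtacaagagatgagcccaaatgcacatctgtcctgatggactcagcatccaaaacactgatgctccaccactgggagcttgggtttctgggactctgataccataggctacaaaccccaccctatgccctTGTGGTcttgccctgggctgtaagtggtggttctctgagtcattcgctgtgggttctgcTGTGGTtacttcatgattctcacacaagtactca
Xcl1: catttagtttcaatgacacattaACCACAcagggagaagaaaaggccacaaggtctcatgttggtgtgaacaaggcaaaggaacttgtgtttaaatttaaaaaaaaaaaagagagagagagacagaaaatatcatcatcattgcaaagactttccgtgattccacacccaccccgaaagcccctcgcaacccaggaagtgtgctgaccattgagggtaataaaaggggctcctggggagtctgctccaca

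Against Gzmk-positive CD8 T cells, no gene passed. In the same 3 libraries, 0 of 1061 genes (0%) had an edgeR adjusted p of at most 0.05, and 38 had an unadjusted p under 0.05; DESeq2 also called 0. The count depended on the libraries, at 36 without aged choroid plexus, 7 without young meninges and 1 without young choroid plexus. Cxcr6 differed by -0.07 ± 0.36 and Xcl1 by -0.13 ± 0.27 (edgeR adjusted p = 0.997 for both), which does not show that the sets were alike. The smallest p belonged to Sh2d1a, the adaptor SAP of SLAM receptors, at -1.46 ± 0.34 (edgeR adjusted p = 0.91). Sh2d1a had 148, 117, 75.4 and 70.5 CPM in members and 255, 299, 262 and 273 in Gzmk-positive cells, lower in each library, though the aged meninges value was 1 UMI and the Poisson intervals overlapped in each library but aged choroid plexus. Tigit, an inhibitory receptor, had 18.5, 46.8, 75.4 and 86.1 CPM against 185, 141, 178 and 178, again lower in each library and with 1 member UMI in either meningeal library (-1.37 ± 0.39, edgeR adjusted p = 0.91). Itgb7 had 259, 328, 377 and 274 CPM against 229, 211, 109 and 119, higher in each library (0.82 ± 0.29, edgeR adjusted p = 0.91). The difference was small in young meninges, and member UMIs were few in each library but aged choroid plexus. The other 4 tested integrin subunits leaned the other way, and Itgb1, the partner of CD49a, had -0.74 ± 0.25 (edgeR adjusted p = 0.91).

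Within aged choroid plexus, which held 71 members and 175 Gzmk-positive cells at like median depth (3179 and 3012 UMIs), 13 genes (0.353%) were higher and 36 (0.977%) lower by the rule of size, of 3684 measured (7 and 39 with TMM scaling). This comparison was added after seeing the data, and its genes are given by size of ratio or from the lists. Fgl2 was in 39 of 71 members and 35 of 175 Gzmk-positive cells, at 282 against 93.7 CPM. Kcnj8, a potassium channel subunit, was in 21 of 71 against 10 of 175, the activating receptor Cd226 in 26 against 27, the nuclear envelope protein Sun2 in 24 against 26 and the checkpoint ligand Vsir in 24 against 19. Itgb7 was in 35 of 71 against 56 of 175, at 274 (214 to 346) against 119 (93.6 to 149) CPM. It was the 1 integrin subunit past the rule of 5 measured, whose median log2 ratio was -0.17, and Itgb1 had 536 against 635 CPM.

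Members and Gzmk-positive cells were separated by Gzmk, so genes that go with Gzmk lean by construction. Of the list of inhibitory receptors and factors, 6 were measured and 2 (Pdcd1, Tox) were lower. Of 8 genes of tissue exit and circulating cells measured 2 (Klf2, Eomes) were lower. Also lower were 2 of 7 genes of dividing cells (Ube2c, Birc5) and 1 of 5 cytokines and chemokines (Ccl4). From other cell types, 1 of 3 gamma-delta genes (Tcrg-C4) and 1 of 2 B cell genes (Igkc) were lower. Slamf6, a SLAM receptor of progenitor-like cells, was detected in 0 of 71 members (upper limit 5.06% for cells with a UMI, not for cells expressing it) and 30 of 175 Gzmk-positive cells. Sh2d1a was in 15 of 71 against 89 of 175. Tox, a factor of chronically stimulated cells, was in 5 against 50, the checkpoint receptor Pdcd1 in 13 against 54, and Eomes, which is linked to Gzmk expression, in 6 against 49. Klf2 was lower here, at 31.3 (13.5 to 61.7) against 110 (85.2 to 139) CPM, but higher in members in both young libraries, at 1090 against 246 and 304 against 70.3 CPM. Penk had the largest ratio, with 0 UMIs in members, but 39 of its 69 UMIs in Gzmk-positive cells were from 1 cell. In young meninges, young choroid plexus and aged meninges, Slamf6 was in 5 of 13, 3 of 11 and 0 of 7 members and in 7 of 23, 0 of 12 and 11 of 140 Gzmk-positive cells, and Kcnj8 in 0, 0 and 1 members and in 3, 1 and 6 Gzmk-positive cells.

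**Figure D5:**
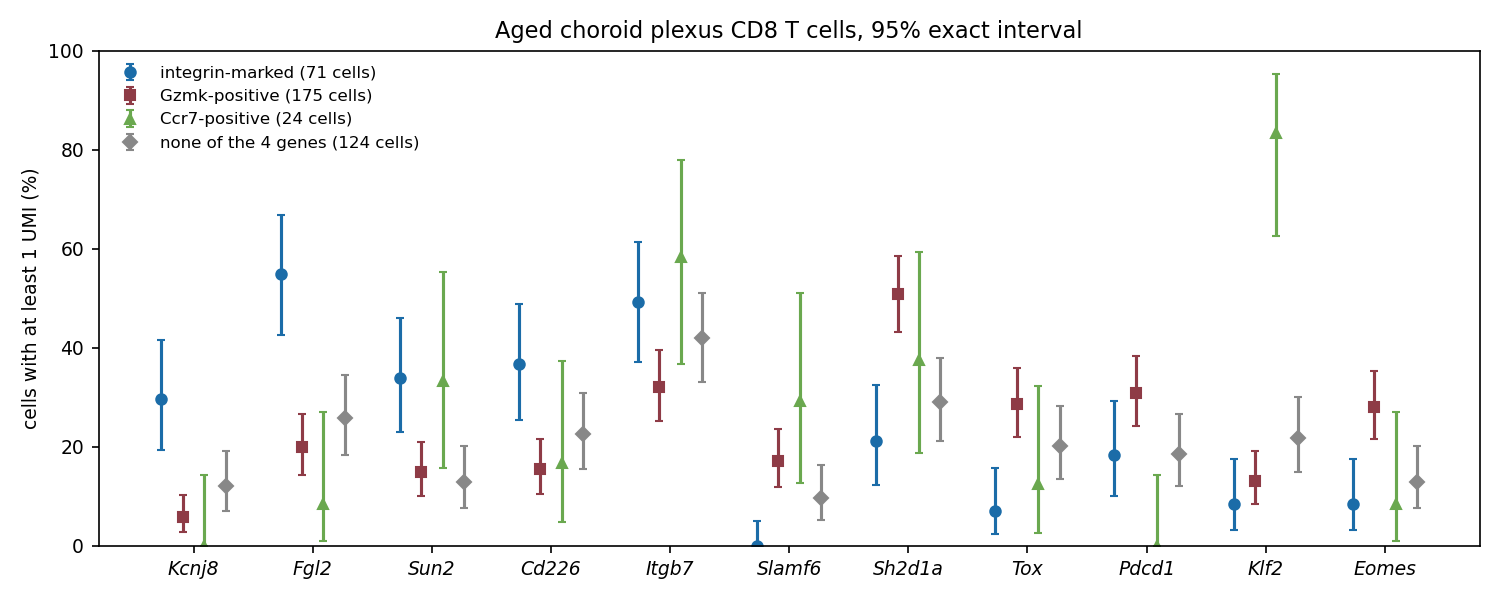
Percentage of cells with at least 1 UMI, with 95% exact intervals, in 4 sets of CD8 T cells of aged choroid plexus. Members (circles) lie above Gzmk-positive cells (squares) for Kcnj8, Fgl2, Sun2, Cd226 and Itgb7 and below them for Slamf6, Sh2d1a, Tox, Pdcd1, Klf2 and Eomes.

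Compared with the 124 CD8 T cells of aged choroid plexus that had none of the 4 genes, 10 genes (0.388%) were higher and 20 (0.775%) lower in members, of 2579. Thinned, 1 was higher and 97 lower, and without gamma-delta list cells 4 and 40. Sun2 (24 of 71 against 16 of 124 cells), Fgl2 (39 against 32), Litaf (29 against 20) and Gzmb (17 against 16) were higher, while Gzma, another granule protease, was lower (58.7 against 175 CPM, in 2 and 6 cells). Of the list of tissue exit and circulating cells, 6 were measured and 3 (Klf2, Klf3 and S1pr1) were lower: S1pr1 was in 5 of 71 against 28 of 124 cells and Klf2 in 6 against 27. Of 10 resident genes measured 1 (Litaf) was higher, and of 7 naive genes measured 0 passed. Of 5 inhibitory receptors and factors measured 0 passed, with a median log2 ratio of -0.56 beside -0.05 for all genes. The inhibitory receptor Klrc1, from the list of innate-like receptors, was lower as well (6 of 71 against 20 of 124 cells). Ccl4 and Ccl3 passed through single cells, which held 57 of 83 Ccl4 UMIs and 19 of 21 Ccl3 UMIs of the other set, and Ccl4 was found in 17 of 71 members and 23 of 124 other cells. Fgl2 and Sun2 were thus higher than in both other sets, and Klf2 lower. Itgb7 did not pass here, at 274 against 216 CPM with intervals that overlapped.

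Aged and young members were compared by the same rule of size. In meninges 9 genes (2.69%) were higher and 45 (13.5%) lower with age, of 334 (4 and 153 with TMM scaling), and in choroid plexus 202 (12.6%) were higher and 6 (0.374%) lower, of 1603. These sums were unequal, with 54135 and 13259 UMIs in young and aged meningeal members and 42717 and 255479 in choroid plexus. With at least 10 UMIs expected in the smaller sum, 6 and 14 of 164 genes remained in meninges and 17 and 3 of 464 in choroid plexus. In both tissues together 0 of 327 genes (0%) were higher and 1 (0.306%) lower, namely Gzmb, at 406 and 75.4 CPM in young and aged meninges and 515 and 204 CPM in choroid plexus. The young values rested on 2 and 4 cells, and the aged meningeal value on 1 UMI. With at least 10 UMIs expected in the smaller sum, Gzmb no longer passed in meninges.

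In meninges the aged members had more Cxcr6 (1659 against 166 CPM) and Ly6c2, a surface protein of effector and memory cells (1735 against 148 CPM), and less Klf2 (151 against 1090 CPM). Of the 23 aged Ly6c2 UMIs, 14 were in 1 cell. With at least 10 UMIs expected in the smaller sum, Cxcr6 and Ly6c2 were no longer among the genes that passed, while Klf2 was. The 7 aged cells included 1 with Itgae alone and the 13 young cells 9, so age and integrin cannot be told apart here. In choroid plexus Ly6a, the stem cell antigen Sca-1, had 752 against 93.6 CPM with age, but it moved likewise in Ccr7-positive cells (635 against 80.4) and in cells with none of the 4 genes (547 against 121). Pak2, a kinase of the cytoskeleton named after its values were seen, had 0 UMIs in the 11 young members and 71 UMIs in 43 of 71 aged members. It was at 181 to 211 CPM in the other 3 sets of young choroid plexus, and the source of this zero was not tested. Tyrobp (22 UMIs in 2 cells against 1 UMI) and Fcer1g (27 UMIs in 3 cells against 15 in 4) were lower with age.

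T-cell receptor V genes were not used by the gate. In aged choroid plexus, 58 of 71 members had a Trbv UMI, over 18 Trbv genes, with an effective number (inverse Simpson) of 12, beside 17.0 over 139 Gzmk-positive cells and 14.2 over 97 cells with none of the 4 genes. This number rises with the cells counted, so no order is read from it. Trbv3 led with 9 of 58 cells (15.5%) and Trbv13-2 followed with 7. Of 25 members with both a Trav and a Trbv gene, 6 (24%, 9.36% to 45.1%) shared their pair with another member, as 3 pairs of 2 cells. The share was 16 of 75 (21.3%, 12.7% to 32.3%) in Gzmk-positive cells and 6 of 53 (11.3%, 4.27% to 23.0%) in cells with none, with overlapping intervals. With at least 2 Trbv UMIs asked for, it was 4 of 22 (18.2%) in members and 15 of 61 (24.6%) in Gzmk-positive cells. In cells with none it was then 2 of 39 (5.13%), and the intervals still overlapped. In the other libraries 0 of 5, 0 of 6 and 0 of 2 paired members shared a pair. A shared V pair is not a clone, since junctions were not read.

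Genes of other cell types were measured in the members. A UMI of 8 gamma-delta T-cell receptor genes was found in 3 of 13, 3 of 11, 4 of 7 and 36 of 71 members, for sums of 166, 187, 603 and 438 CPM. The most abundant was Trgv2, with 61 UMIs in aged choroid plexus, while the defining gene Trdc had 0 UMIs in the members of all 4 libraries. Gzmk-positive cells of aged choroid plexus had such a UMI in 89 of 175 cells and Ccr7-positive cells in 1 of 24. Trgv2 was called higher than in Ccr7-positive cells, but was tested mainly through members, at a mean of 150 against 11.4 CPM. Of 8 natural killer cell genes the members had 143, 60, 1 and 40 UMIs (2642, 1405, 75.4 and 157 CPM) over 5, 5, 1 and 5 genes, led by Gzma, Fcer1g, Eomes and, with 15 UMIs each, Gzma and Fcer1g, and Klra4 was at 0 throughout. B cell genes gave 7, 5, 1 and 23 UMIs, of which Ighm gave 4, 5, 1 and 22, with Cd79a and Ms4a1 at 0. Neutrophil and fibroblast genes were at 0 in members, macrophage genes gave 3 UMIs in young meninges, and haemoglobin, choroid epithelial and endothelial genes gave at most 2 UMIs in a library. Helper and regulatory CD4 genes gave 9, 1, 3 and 40 UMIs, led by Cd40lg in young meninges and both aged libraries and by Gata3 in young choroid plexus. Immediate early and heat shock genes followed the tissue, at 3842 and 4751 CPM in meninges and 538 and 732 CPM in choroid plexus. Genes of dividing cells gave 134 UMIs in 10 of 71 members of aged choroid plexus (14.1%), led by Stmn1 with 46, and 3, 5 and 0 UMIs elsewhere. Members in the top 5% of doublet scores numbered 1, 0, 1 and 11 (7.69, 0, 14.3 and 15.5%), beside 8.46, 10.2, 7.83 and 10.7% of all CD8 T cells. The part of these genes and scores in the results above was not tested beyond the alternatives given.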

How the data were processed

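The authors deposited UMI counts, not normalized, for 31053 genes. The submitters' processing notes list Cell Ranger 5.1.0, STAR and mm10, while the file headers give software version 3.1.0; which applies was not settled. Limits on cells followed the study's methods. The members, gene lists and tests were chosen with earlier results of these data known, and all alternatives listed as added were chosen after seeing the data. UMIs were summed per library and set, scaled to CPM or fitted in edgeR 4.0.16 (TMM, filterByExpr, quasi-likelihood, library as a block, Benjamini-Hochberg at 0.05; R 4.3.3), leaving out the 10 gate genes; the filter can pass a gene through its higher set alone. A library entered with at least 10 cells in both sets. DESeq2 1.42.0 was an alternative. The 2 tissues of an age may share mice. Named genes were those of 22 lists and, per tested comparison, the 15 called genes at either end with the same sign in each library. Id2 was named besides these. Receptor, immunoglobulin, mitochondrial, ribosomal and predicted genes were left out. Genes of the comparisons by size were taken by ratio or from the lists, after seeing the data. Cells were thinned by drawing 1000 UMIs, leaving out shallower cells. Scrublet scores (scanpy 1.11.5) marked the top 5% of each library. Doublets were not removed otherwise. The edgeR fit and the rule of size were also run on simulated counts. These counts held no effects of library or of single cells, so they do not cover such errors. Totals per library were 3737140, 2295950, 4262917 and 3957717 UMIs; intervals (95%) cover counting error only. Protein sequences were not used here, and some genes are not reported here. Python 3.11.15, numpy 2.4.6, pandas 2.3.3, scipy 1.17.1 and matplotlib 3.10.9 were used.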

Additional observations from a re-analysis of the deposited data

Results flagged for a closer look

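The share of CD8 T cells that were integrin-marked differed in sign between the tissues, at -2.51 percentage points in meninges and 8.33 in choroid plexus (aged minus young). Each is between single libraries, the meningeal intervals overlapped, and the difference was not tested. Lgals1, which encodes galectin-1, had a log2 ratio of aged to young members of -1.46 in meninges, on 6 aged UMIs, and 1.01 in choroid plexus; this difference was not tested either.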

How the results depend on the processing

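With 1 library per condition and 7 to 71 members each, differences between ages or tissues could not be set against replicate error, and genes with few UMIs were below what this depth can show. The share was 0.769, 1.20, 0.356 and 6.30% with at least 2 integrin UMIs, 16.5, 19.8, 11.03 and 30.3% without the exclusion of Gzmk and Ccr7, and 11.8% in thinned aged choroid plexus. Aged choroid plexus was highest in each of these, though its interval overlapped that of young choroid plexus when thinned, without top doublet scores or without the exclusion. Cxcr6 was 0 CPM in young meninges when gamma-delta list cells were left out or 2 UMIs were asked for, and 217, 167 and 1096 CPM in young choroid plexus without those cells, thinned and with 2 UMIs. In aged meninges it was 1000 thinned, 954 with 2 UMIs and 711 without exclusion, and in aged choroid plexus 629, 955 and 903 without gamma-delta list cells, thinned and with 2 UMIs.

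Calls against Gzmk-positive cells (0) became 18 with no filter, 2 with at least 50 UMIs, 1 with Cd8b1 cells, 9 without top doublet scores, 7 with all 4 libraries, 1 with Itga1 members in all 4, 1 with the tissues of an age summed, and 1 to 36 with a library left out. Calls against Ccr7-positive cells (93) became 142 with at least 50 UMIs, 58 with Cd8b1 cells, 144 without top doublet scores, 41 with all 4 libraries, 161 with Itga1 members in all 4, 27 in all 4 without Klrb1c or Ncr1 cells, 4 with the tissues summed, and 4 to 62 with a library left out. Of the 30 named genes, no alternative reversed one; of 420 gene results over 14 alternatives, 224 kept their call, 69 had no value and 127 lost their call, of which 29 without young choroid plexus and 26 with the tissues summed. The Cd8b1 and gamma-delta settings left 2 libraries, and the thinned and 2-UMI settings 1, so the latter were not run. The edgeR comparison of Itgae-only with Itga1 members and its alternatives were not run, since 1 library held 10 cells of each. The library block paired the sets within each library; without it 0 genes passed against Gzmk-positive and 65 against Ccr7-positive cells. The labels give the libraries no shared replicate numbers.

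Genes past the rule of size against Gzmk-positive cells (49) became 111 and 3 at pseudocounts of 10 and 100 CPM and 17 thinned, and against cells with none of the 4 genes (30) 84, 3, 68 from 10 UMIs and 98 thinned. Itga1 against Itgae-only counts in aged choroid plexus (60) became 6 at 100 CPM, 255 from 10 UMIs, 8 thinned, 36 without gamma-delta list cells and 16 with 10 UMIs expected, and in young libraries (63) 174 from 10 UMIs, 5 thinned and 40 without gamma-delta list cells. For age, meninges (54) gave 177 from 10 UMIs, 14 thinned, 157 TMM-scaled and 20 with 10 expected, and choroid plexus (208) gave 34 at 100 CPM, 556 from 10 UMIs, 45 thinned, 106 without gamma-delta list cells, 127 without top doublet scores and 20 with 10 expected. Both tissues together (1) gave 11 from 10 UMIs, 2 thinned, 3 without top doublet scores, 3 TMM-scaled and 0 with 10 expected. TMM scaling moved the median of all genes from -0.08 to -0.27 for young Itga1 against Itgae-only members, and with age from -0.22 to -0.93 in meninges and from 0.16 to 0.36 in choroid plexus (log2). The causes were not tested.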
